A study of Mus musculus with 6 samples.

Results

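The 10 genes described here are 4 targets of the liver X receptors (LXRs), Mylip, Abca1, Abcg1 and Srebf1, and 6 genes of fatty acid synthesis, Fasn, Scd1, Scd2, Me1, Acaca and Acly. They were chosen by symbol, and all 10 were found among the 24940 genes of the deposited exon count table. Polyadenylated RNA was sequenced from primary hepatic stellate cells, which store vitamin A and line the liver sinusoids, from wild-type female mice of the C57BL/6JBomTac strain. In the OCA+VIP group (3 libraries) the cells received 10 µM obeticholic acid (OCA), a bile acid derivative and agonist of the bile acid receptor FXR, on day 2 after isolation, and 500 nM vasoactive intestinal peptide (VIP) was added 3 h later for 3 h more. The DMSO+VIP group (3 libraries) received the same volume of vehicle (DMSO, 1:1000) and then the same VIP. All 6 libraries therefore had VIP, and the comparison is of OCA with vehicle in VIP-exposed cells. Whether libraries of one group stem from different mice or culture wells is not in the labels, and p-values here reflect only library-to-library spread, which may be technical. Column totals were 4.53e+06, 9.95e+06 and 5.80e+06 counts in OCA+VIP libraries 1 to 3 and 4.57e+06, 2.84e+06 and 3.73e+06 counts in DMSO+VIP libraries 1 to 3.

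LXRα and LXRβ, encoded by Nr1h3 and Nr1h2, bind oxidised cholesterol derivatives and act as partners of the retinoid X receptors. In sterol-loaded cells they raise the cholesterol exporters ABCA1 and ABCG1 and the ubiquitin ligase MYLIP, also called IDOL, which marks lipoprotein receptors for degradation. They also raise Srebf1, whose product SREBP-1 drives fatty acid synthesis. In that pathway ATP citrate lyase (Acly) makes cytosolic acetyl-CoA, acetyl-CoA carboxylase 1 (Acaca) makes malonyl-CoA, and fatty acid synthase (Fasn) builds palmitate. Malic enzyme 1 (Me1) supplies NADPH, and the stearoyl-CoA desaturases (Scd1, Scd2) put in the first double bond.

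With OCA before VIP, the 4 LXR targets did not move together. RNA of Mylip was 2.44-fold higher and RNA of Abca1 was 2.58-fold lower, while the differences of Abcg1 and Srebf1 did not pass the test. Of the 6 lipogenic genes, Fasn rose 1.49-fold and Me1 rose 1.67-fold, and Acly, Acaca, Scd1 and Scd2 did not pass. In all, 3 of 10 genes were higher, 1 was lower and 6 did not pass (quasi-likelihood test of edgeR over 11286 tested genes, called at a Benjamini-Hochberg adjusted p under 0.05). Over all tested genes, 5.72% were higher, 6.04% were lower and 11.8% were called in either direction. The median log2 fold change was 0.13 over the 10 genes and 0.00 over all tested genes. These are bulk libraries, in which fewer cells of a type and less RNA per cell cannot be told apart. The summed level of 10 hepatocyte markers was 399, 241 and 342 CPM (counts scaled to a column total of 1000000) in OCA+VIP libraries 1 to 3, against 69.7, 74.1 and 76.9 CPM in DMSO+VIP libraries 1 to 3, and 9 of 9 tested markers were higher. Hepatocytes express Fasn, Me1, Acly, Scd1 and Apoe, among others. The part of hepatocyte RNA in the value of any gene given here, in the 10 or in the wider lists, was not tested.

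The promoters of Abca1, Fasn and Srebf1 are given first, because they hold a like element while the RNA of Abca1 fell, that of Fasn rose and that of Srebf1 did not pass the test. The sequences are from RefSeq (GRCm38.p6, the assembly of mm10), which listed promoters for 7 of the 10 genes. Each runs 5′ to 3′ from 250 bases before the transcription start to 20 bases after it. Capitals mark TGACCGGTAGTAACCCCG and its closest windows in Srebf1, a direct repeat with 4 bases between its arms when read on the other strand. This is the type of element that LXR-RXR pairs bind.
Abca1 (chr4:53159876-53160145, minus strand): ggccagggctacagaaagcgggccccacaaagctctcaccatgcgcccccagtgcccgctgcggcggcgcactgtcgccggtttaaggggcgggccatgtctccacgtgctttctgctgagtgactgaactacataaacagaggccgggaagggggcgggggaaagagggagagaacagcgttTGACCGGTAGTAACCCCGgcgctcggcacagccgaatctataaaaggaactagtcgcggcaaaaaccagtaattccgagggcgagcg
Fasn (chr11:120824528-120824797, minus strand): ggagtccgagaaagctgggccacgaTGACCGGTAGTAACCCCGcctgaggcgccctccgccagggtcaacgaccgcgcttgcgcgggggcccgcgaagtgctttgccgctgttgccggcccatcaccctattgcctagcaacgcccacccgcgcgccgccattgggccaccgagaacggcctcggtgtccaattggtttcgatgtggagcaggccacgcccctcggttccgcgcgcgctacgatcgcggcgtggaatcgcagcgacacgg
Srebf1, inner start (chr11:60210452-60210721, minus strand): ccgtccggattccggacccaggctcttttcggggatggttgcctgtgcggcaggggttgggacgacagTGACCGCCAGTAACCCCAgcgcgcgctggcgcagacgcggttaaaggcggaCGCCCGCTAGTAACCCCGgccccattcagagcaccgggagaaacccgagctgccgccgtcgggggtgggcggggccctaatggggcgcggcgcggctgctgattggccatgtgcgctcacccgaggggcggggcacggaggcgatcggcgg
The element was read from the promoters themselves, as the longest run of bases common to those of Abca1 and Fasn. It is 18 bases long, 67 bases before the start in Abca1 and 225 bases before it in Fasn, while the longest run in the other 20 pairs of members was 6 to 13 bases over all their listed promoters, the inner start of Srebf1 included. In Srebf1, 2 windows came closest, each with 3 mismatches: TGACCGCCAGTAACCCCA, 182 bases before the start, and CGCCCGCTAGTAACCCCG, 131 bases before it. Of 32851 promoters of 300 bases, 2 held the run itself (0.00609%) and 6 held it with at most 3 mismatches on either strand (0.0183%). Beside those of Abca1, Fasn and Srebf1 these were the promoters of Acsl3, Rnf145 and Gm34061. The RNA of Acsl3 did not pass (log2 fold change 0.27, standard error 0.26, adjusted p = 0.55 by edgeR). That of Rnf145 and Gm34061 is not given here. Since the run was chosen from Abca1 and Fasn, the counts of promoters describe how exact the shared element is. The textbook repeat of AGGTCA with 4 bases between was found in 5 promoters (0.0152%) and in none of the members'.

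The marked Srebf1 windows lie at the inner start of the gene, which gives the SREBP-1c form. The deposited Srebf1 row is a transcript from a start 10156 bases farther upstream. In GENCODE, 3.54% of the exon bases of the transcript from that upstream start lie before the inner start, so the deposited counts do not separate the forms. For comparison, the promoters of Mylip and Me1, the genes with the highest per-length levels in OCA+VIP cells, are given next, with capitals in Me1 marking a match to the antioxidant response element (TGACNNNGC, both strands), the type of element that NRF2 binds.
Mylip (chr13:45389492-45389761, plus strand): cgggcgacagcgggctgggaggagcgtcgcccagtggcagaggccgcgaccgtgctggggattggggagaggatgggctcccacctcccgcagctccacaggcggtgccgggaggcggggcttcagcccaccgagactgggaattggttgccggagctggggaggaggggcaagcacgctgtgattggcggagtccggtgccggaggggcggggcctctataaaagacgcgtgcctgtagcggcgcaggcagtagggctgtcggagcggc
Me1 (chr9:86695895-86696164, minus strand): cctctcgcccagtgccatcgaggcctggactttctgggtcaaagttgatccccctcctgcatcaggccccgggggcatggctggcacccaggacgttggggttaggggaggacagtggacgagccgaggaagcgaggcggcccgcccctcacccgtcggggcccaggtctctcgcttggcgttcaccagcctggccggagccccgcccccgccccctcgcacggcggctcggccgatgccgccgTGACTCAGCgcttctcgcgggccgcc
The match in Me1 was TGACTCAGC and begins 6 bases before the start, and 12.4% of all promoters held this motif. Neither the direct repeat nor the sterol regulatory element searched as TCACNCCAC (1.24% of promoters) was found in these windows of Mylip and Me1. No listed promoter of any member held an exact match to TCACNCCAC. Looser forms of the sterol regulatory element were not searched, so its absence is not shown. The E-box form CACGTG (7.15% of promoters) was found in 1 member, Abca1, 147 bases before the start. Promoters were listed for only 7 of the 10 genes, and other forms of the E-box were not searched. Absence of an E-box from the other members is therefore not shown either.

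Mylip (chromosome 13, 45389742 to 45411940, mm10) had 219, 182 and 217 CPM in OCA+VIP libraries 1 to 3, against 86.9, 70.1 and 93.9 CPM in DMSO+VIP libraries 1 to 3. Every OCA+VIP library was above every DMSO+VIP library. The log2 fold change was 1.29 (standard error 0.14, adjusted p = 2.96e-06 by edgeR). Left out one at a time, the 6 libraries gave log2 fold changes of 1.18 to 1.40, each past the threshold.

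Abca1 (chromosome 4, 53030789 to 53159895) encodes the transporter that hands cholesterol and phospholipid to lipid-poor apolipoprotein A-I. It had 16.7, 33.0 and 13.7 CPM in OCA+VIP libraries 1 to 3, against 60.7, 50.2 and 51.8 CPM in DMSO+VIP libraries 1 to 3. The groups did not overlap, and OCA+VIP library 2 was the highest of its group. The log2 fold change was -1.36 (standard error 0.25, adjusted p = 0.00097 by edgeR). Over the 6 fits with 1 library left out, all past the threshold, it ran from -1.81, when OCA+VIP library 2 was absent, to -1.14, when it was OCA+VIP library 3.

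Abcg1 (chromosome 17, 31057694 to 31117981), which passes cholesterol on to mature HDL, had 18.5, 15.9 and 19.2 CPM in OCA+VIP cells and 25.7, 11.1 and 23.0 CPM in DMSO+VIP cells. The groups overlapped, with DMSO+VIP library 2 the lowest of all 6. The log2 fold change was -0.19 (standard error 0.32, adjusted p = 0.76 by edgeR), and it changed sign, to 0.024, without DMSO+VIP library 1. Srebf1 (chromosome 11, 60199084 to 60220627), which shares 1.93% of its exon bases with the opposite-strand gene Rai1, had 79.8, 76.7 and 66.6 CPM in OCA+VIP cells and 90.4, 69.7 and 88.4 CPM in DMSO+VIP cells. These groups overlapped too, with a log2 fold change of -0.18 (standard error 0.16, adjusted p = 0.52 by edgeR).

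**Figure D1:**
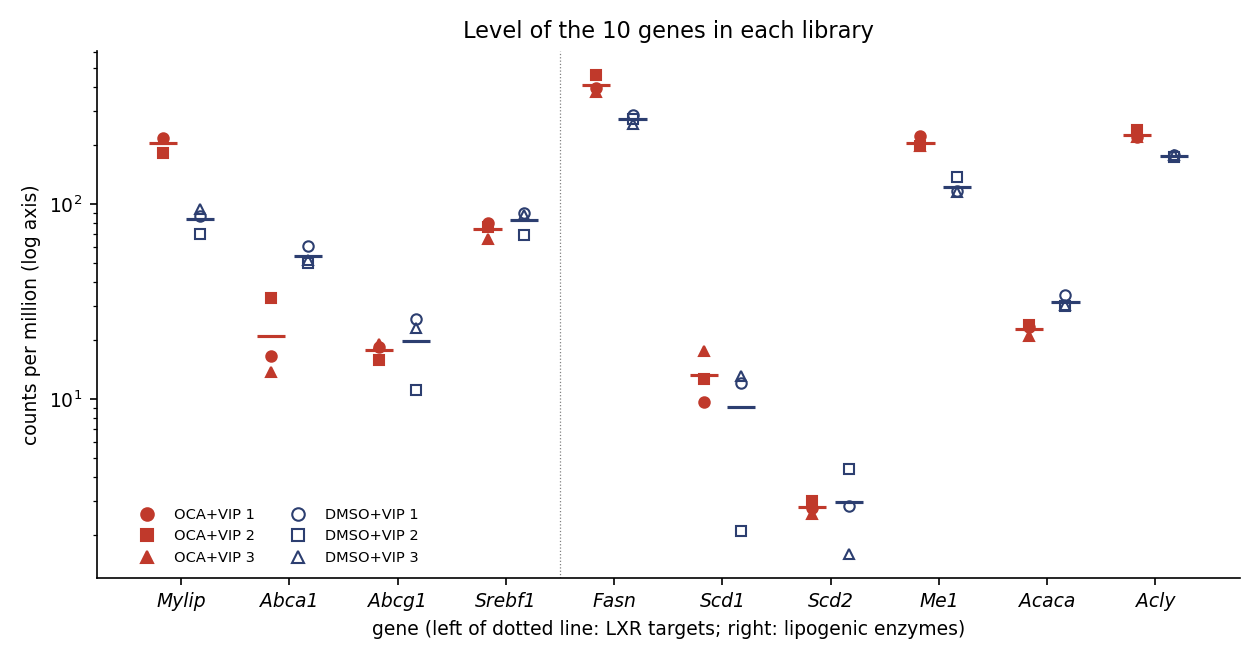
Level of each gene in CPM (log axis) in the 3 OCA+VIP libraries (filled) and the 3 DMSO+VIP libraries (open), with the group mean as a bar. The symbols separate fully for Mylip, Fasn, Me1 and Acly (OCA+VIP above) and for Abca1 and Acaca (OCA+VIP below), while those of Abcg1, Srebf1, Scd1 and Scd2 overlap.

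Among the lipogenic enzymes, Fasn (chromosome 11, 120805958 to 120824547) had 394, 461 and 376 CPM in OCA+VIP libraries 1 to 3, against 286, 272 and 257 CPM in DMSO+VIP libraries 1 to 3. Its groups did not overlap, and OCA+VIP library 2 was the highest. The log2 fold change was 0.58 (standard error 0.12, adjusted p = 0.0025 by edgeR), and 0.53 to 0.63 with 1 library left out, each past the threshold. Me1 (chromosome 9, 86581363 to 86695914) had 223, 199 and 199 CPM in OCA+VIP cells and 116, 138 and 115 CPM in DMSO+VIP cells. The groups did not overlap. The log2 fold change of Me1 was 0.74 (standard error 0.13, adjusted p = 0.00056 by edgeR), and 0.65 to 0.83 with 1 library left out. An antisense gene shares 0.780% of its exon bases, and whether reads were counted by strand is not given in the sources used here.

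Acly (chromosome 11, 100476352 to 100528000) had 221, 240 and 221 CPM in OCA+VIP cells and 179, 174 and 179 CPM in DMSO+VIP cells. The groups did not overlap, and the spread within each was small, but the log2 fold change of 0.34 (SE 0.11) missed the threshold (edgeR adjusted p = 0.055). It passed by DESeq2 (adjusted p = 0.0044), by limma-voom (0.049), with library-size scaling alone (0.036) and with counts divided by 6 (0.044). Acaca (chromosome 11, 84195438 to 84401651) had 23.5, 23.9 and 21.1 CPM in OCA+VIP cells and 34.1, 30.1 and 30.5 CPM in DMSO+VIP cells. Here too the groups did not overlap, with OCA+VIP below, and the log2 fold change of -0.49 (SE 0.23) did not pass (edgeR adjusted p = 0.18). In all, 4 of 10 genes had every OCA+VIP library above every DMSO+VIP library and 2 of 10 had every one below. Over the tested genes, such separation was found for 16.8% above and 13.9% below.

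The desaturases were measured too sparsely for a fine comparison. Low counts in this table come mostly in steps of about 6, so a summed count of 18 in a group, 3 such steps, was taken as the detection limit, for counting error only. Scd1 (chromosome 19, 44394450 to 44407709), the main desaturase of hepatocytes, had 44, 125.5 and 103 counts in OCA+VIP libraries 1 to 3, against 55, 6 and 49 counts in DMSO+VIP libraries 1 to 3. The 6 counts of DMSO+VIP library 2 are 1 step. The log2 fold change of Scd1 was 0.52 (standard error 0.48, adjusted p = 0.55 by edgeR), and 0.08 without DMSO+VIP library 2. Scd2 (chromosome 19, 44293676 to 44306862), the desaturase of many tissues outside the liver, had 12.5, 30 and 15 counts in OCA+VIP libraries and 13, 12.5 and 6 counts in DMSO+VIP libraries. A difference in Scd2 was not detectable at this depth (log2 fold change -0.08, standard error 0.86, adjusted p = 0.97 by edgeR). Of the neighbouring paralogs, Scd4 had no counts, and Scd3 had 6 counts in OCA+VIP cells and 12.5 in DMSO+VIP cells, under the limit.

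**Figure D2:**
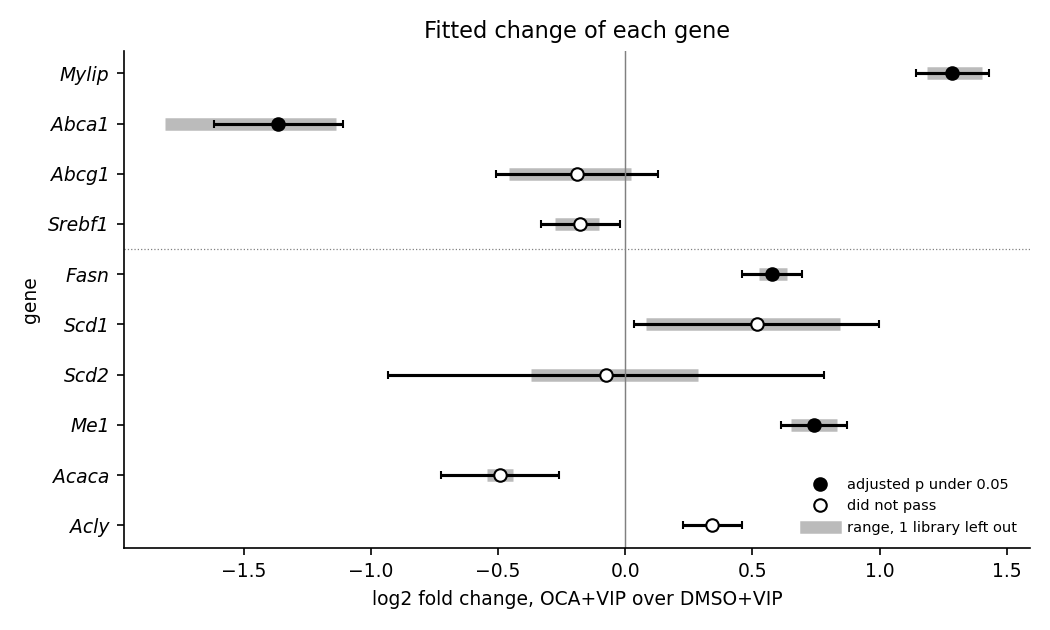
Fitted log2 fold change of OCA+VIP over DMSO+VIP for each gene, with its standard error, and in grey the range when each of the 6 libraries was left out. Filled symbols passed the test. Mylip (1.29) and Abca1 (-1.36) lie at opposite ends. Fasn, Me1, Acly and Scd1 lie between 0.34 and 0.74. The standard error is widest for Scd2, and the grey range is widest for Scd1.

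Per kilobase of exon, which allows levels of different genes to be compared, Mylip was highest in OCA+VIP cells at 69.3 ± 6.96 CPM per kilobase (SD, n = 3). It was followed there by Me1 at 63.9 ± 4.13, Acly at 51.7 ± 2.44 and Fasn at 41.5 ± 4.53. In DMSO+VIP cells Acly led at 40.3 ± 0.603, followed by Me1 at 38.0 ± 3.88, Mylip at 28.1 ± 4.11 and Fasn at 27.5 ± 1.49. Within each group Mylip and its nearest neighbour in this order lay within their spread, as did Acly and Me1 in DMSO+VIP cells. Srebf1 came next in either group, at 17.3 ± 1.61 in OCA+VIP cells and 19.2 ± 2.65 in DMSO+VIP cells. The other 5 genes were much lower: in OCA+VIP cells they lay between 0.512 (Scd2) and 3.08 (Abcg1), and in DMSO+VIP cells between 0.542 (Scd2) and 5.31 (Abca1). Abca1 headed these 5 in DMSO+VIP cells at 5.31 ± 0.552, while in OCA+VIP cells it stood second from the bottom at 2.07 ± 1.02. The mean of Acaca there (2.54 ± 0.167) lay within the wide spread of Abca1.

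Ratios of counts within a library do not depend on how libraries are scaled. The ratio of Mylip to Abca1 was 13.2, 5.53 and 15.8 in OCA+VIP libraries 1 to 3, against 1.43, 1.40 and 1.81 in DMSO+VIP libraries 1 to 3. The ratio of Fasn to Abca1, a lipogenic gene over a sterol exporter, was 23.7, 14.0 and 27.5 in OCA+VIP libraries and 4.72, 5.42 and 4.96 in DMSO+VIP libraries. The ratio of the exporters, Abcg1 over Abca1, was 1.11, 0.483 and 1.40 in OCA+VIP libraries and 0.423, 0.221 and 0.444 in DMSO+VIP libraries. In these 3 ratios OCA+VIP library 2 was the lowest of its group, and it still lay above all DMSO+VIP libraries. For the enzymes of consecutive steps, Fasn over Acaca was 16.8, 19.3 and 17.8 in OCA+VIP libraries and 8.39, 9.04 and 8.41 in DMSO+VIP libraries. These pairs were chosen after their values were seen. With 3 libraries against 3, the exact permutation test cannot give a p under 0.1, so the ratios are given without a test.

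**Figure D3:**
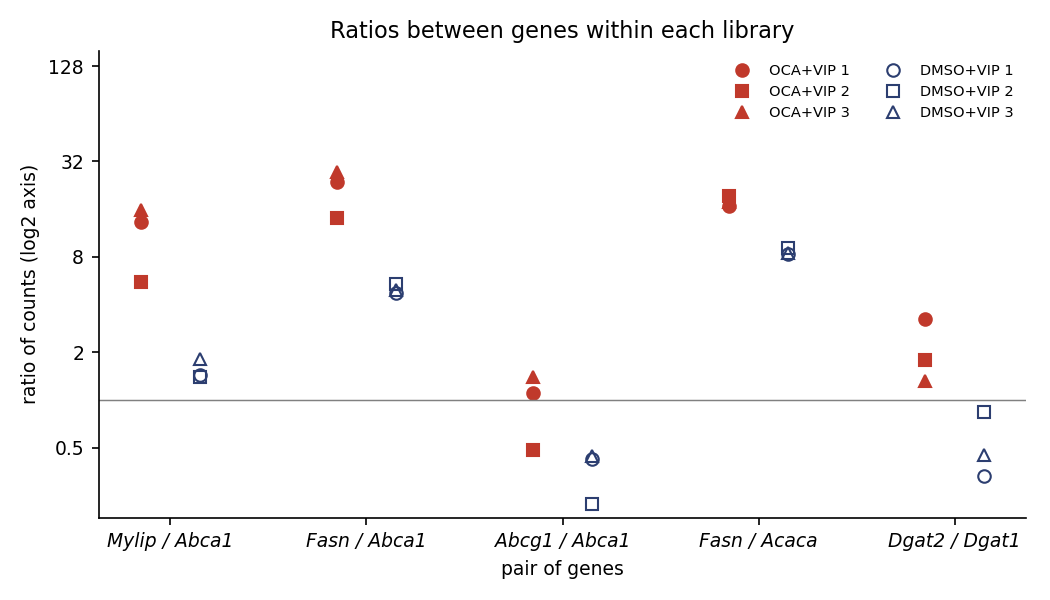
Ratio of the counts of 2 genes within each library (log2 axis), OCA+VIP filled and DMSO+VIP open. In each of the 5 pairs the 3 OCA+VIP libraries lie above the 3 DMSO+VIP libraries, and OCA+VIP library 2 lies lowest of its group in the 3 pairs over Abca1.

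Around the 10 genes, 83 further genes in 7 lists cover the receptors, other LXR targets, SREBP control, supply of precursors and use of the fatty acids. Of these, 69 were tested, 6 were higher, 4 were lower and 59 did not pass, so that 14.5% were called, against 11.8% of all tested genes. Their median log2 fold change was 0.04. The receptors themselves did not pass: Nr1h3 had a log2 fold change of -0.55 (SE 0.47), Nr1h2 of 0.12 (SE 0.12) and their partner Rxra of -0.32 (standard error 0.12, adjusted p = 0.099 by edgeR). Per kilobase of exon Nr1h2 was far above Nr1h3, at 77.9 ± 0.384 CPM per kilobase in OCA+VIP cells and 70.8 ± 3.76 in DMSO+VIP cells, where Nr1h3 had 4.68 ± 0.782 and 6.74 ± 3.62 (SD, n = 3). Of the 8 tested receptor and cofactor genes, 0 passed by edgeR or limma-voom. At an unadjusted p under 0.05 there was 1, and DESeq2 called 1, Rxra, lower.

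Among the other LXR targets, of 8 tested, Apoe, the apolipoprotein of remnant particles, was higher, Arl4c, a small GTPase linked to cholesterol transport, was lower, and 6 did not pass. Arl4c had 12.9, 11.1 and 15.9 CPM in OCA+VIP libraries 1 to 3, against 34.8, 33.3 and 30.4 CPM in DMSO+VIP libraries 1 to 3. Its groups did not overlap, and its log2 fold change of -1.33 (standard error 0.27, adjusted p = 0.0022 by edgeR) was close in size to that of Abca1. Apoe had 267, 157 and 222 CPM in OCA+VIP libraries and 96.2, 73.6 and 90.7 CPM in DMSO+VIP libraries (log2 fold change 1.30, standard error 0.18, adjusted p = 3.1e-05 by edgeR). The intestinal and hepatic sterol exporters Abcg5 and Abcg8 had 6 and 0 counts over all 6 libraries. Of the lipoprotein receptors that MYLIP marks for degradation, Lrp8 had a log2 fold change of 0.43 (SE 0.28), which did not pass by edgeR, DESeq2 or limma-voom, and Vldlr had no counts.

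Among 11 tested regulators of SREBP and ChREBP, 2 were higher, 1 was lower and 8 did not pass. Insig1, which holds the SREBP escort protein in the endoplasmic reticulum and is itself an SREBP target, had 115, 114 and 102 CPM in OCA+VIP libraries, against 66.0, 61.6 and 66.8 CPM in DMSO+VIP libraries (log2 fold change 0.75, standard error 0.14, adjusted p = 0.0011 by edgeR). Mbtps1, the site-1 protease that cuts SREBPs in the Golgi, fell to 93.1 ± 24.9 CPM in OCA+VIP cells, against 158 ± 9.56 CPM in DMSO+VIP cells (log2 fold change -0.78, SE 0.15). Usf1, a transcription factor that binds the Fasn promoter, was higher (0.72, standard error 0.20, adjusted p = 0.023 by edgeR), a call lost without OCA+VIP library 1 or 3 or DMSO+VIP library 1 or 3 (adjusted p up to 0.11). The same-strand gene Tstd1 shares 7.13% of the exon bases of Usf1. Srebf2, which encodes the SREBP of cholesterol synthesis, did not pass (0.26, SE 0.13), and Mlxipl, which encodes ChREBP, had no counts. Of 9 genes that supply citrate, acetyl-CoA or NADPH, G6pdx, which opens the pentose phosphate pathway and makes NADPH as Me1 does, was higher, with a log2 fold change of 0.50 (standard error 0.13, adjusted p = 0.011 by edgeR), and 8 did not pass. An opposite-strand gene, Ikbkg, shares 13.6% of its exon bases, and its call was lost without DMSO+VIP library 2 (adjusted p = 0.071).

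Of the 20 other tested genes of fatty acid synthesis, elongation and desaturation, 0 passed by edgeR, and the median log2 fold change was 0.05. At an unadjusted p under 0.05 there were 4, DESeq2 called 2 (Elovl1 and Hsd17b12) and limma-voom called 0. Among those that did not pass were the elongase Elovl6 (0.13, SE 0.34) and the desaturases Fads1 (0.07, SE 0.14) and Fads2 (0.40, SE 0.55). Thrsp, the lipogenic marker known as Spot 14, had 11.5 counts in OCA+VIP cells and 12 in DMSO+VIP cells, under the limit. Of 12 tested genes of triglyceride synthesis and turnover, 2 were higher, 2 were lower and 8 did not pass. Dgat2, an acyltransferase that completes triglyceride synthesis, had 54.6, 52.8 and 43.2 CPM in OCA+VIP libraries, against 19.3, 28.5 and 20.9 CPM in DMSO+VIP libraries (log2 fold change 1.13, standard error 0.22, adjusted p = 0.0018 by edgeR). Its counterpart Dgat1 had 16.8, 29.7 and 32.9 CPM in OCA+VIP libraries and 58.2, 33.8 and 46.7 CPM in DMSO+VIP libraries (-0.82, standard error 0.25, adjusted p = 0.032 by edgeR). The call of Dgat1 was lost without OCA+VIP library 1, DMSO+VIP library 1 or DMSO+VIP library 3 (adjusted p up to 0.19). The ratio of Dgat2 to Dgat1 was above 1 in the 3 OCA+VIP libraries (1.31 to 3.26) and below 1 in the 3 DMSO+VIP libraries (0.333 to 0.844). Agpat2, an acyltransferase of phosphatidic acid synthesis, fell (-0.92, SE 0.22), with 3.00% of its exon bases shared with the opposite-strand gene Egfl7, and Pnpla2, the triglyceride lipase ATGL, rose (0.63, SE 0.14). Plin2, the coat protein of lipid droplets, had 530 ± 33.7 CPM in OCA+VIP cells and 668 ± 20.6 CPM in DMSO+VIP cells and did not pass (-0.35, standard error 0.12, adjusted p = 0.072 by edgeR), though DESeq2 and limma-voom called it lower.

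**Figure D4:**
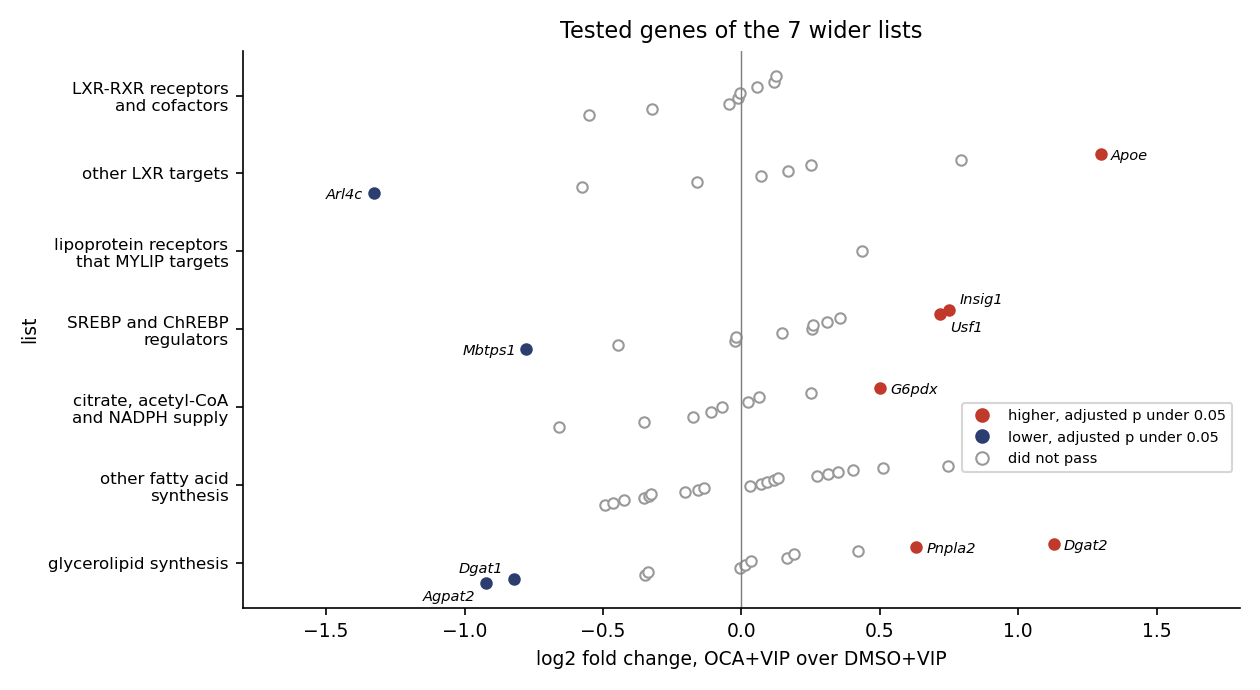
Fitted log2 fold change of OCA+VIP over DMSO+VIP for the 69 tested genes of the 7 wider lists, 1 row a list. The 10 genes that passed are named, 6 higher (red) and 4 lower (blue); 0 of the 20 genes of the fatty acid synthesis row passed by edgeR.

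Among the OCA+VIP libraries, the hepatocyte marker sum given above was highest in library 1 and lowest in library 2. Apoe and Mylip had the same order, and Me1 was also highest in library 1. Fasn and Acly were highest in library 2, while Scd1 was highest in library 3 and lowest in library 1. These orders rest on 3 libraries, and the part of hepatocyte RNA in each value was not tested. The 10 macrophage markers, a cell type with much Abca1 and Abcg1, summed to 31.0 to 44.2 CPM in OCA+VIP cells and 15.3 to 47.3 CPM in DMSO+VIP cells. Of these, Ptprc, C1qa, C1qb and Timd4 were at 0 in all 6 libraries, and 0 of 2 tested markers passed by edgeR, DESeq2 or limma-voom, with 1 at an unadjusted p under 0.05. Of the 10 stellate cell markers, all tested, 3 were higher, 2 were lower and 5 did not pass, with sums of 872 to 997 CPM in OCA+VIP cells and 736 to 972 CPM in DMSO+VIP cells. Of the 6 lymphocyte markers, 4 were at 0 in all 6 libraries, Cd3e, Cd3g, Ms4a1 and Nkg7. The B cell receptor chain gene Cd79a had 27.5, 36.5 and 48.5 counts in OCA+VIP libraries 1 to 3, against 0 in each DMSO+VIP library, and was higher (adjusted p = 0.0025 by edgeR). The 6 sinusoidal endothelial markers summed to 4.74 to 10.1 CPM in OCA+VIP cells and 0 to 6.52 CPM in DMSO+VIP cells, and the 4 cholangiocyte markers to 12.4 to 15.9 CPM in OCA+VIP cells and 2.29 to 13.3 CPM in DMSO+VIP cells. Of each of these lists 1 gene was tested, and neither Pecam1 (adjusted p = 0.24) nor Krt19 (adjusted p = 0.33) passed by edgeR. Lyve1 and Krt7 were at 0 in all 6 libraries. The part of these cell types in the members' values was not tested.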

How the data were processed

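Polyadenylated RNA of 3 OCA+VIP and 3 DMSO+VIP libraries was measured. The authors deposited expected counts per gene over exons, in steps of 0.5 and not adjusted for library size, with 1 RefSeq transcript a gene and its exon length, per the file headers. The mm10 genome, STAR, HOMER and DESeq2 are named, with no role or version, per the submitters' processing notes; strand and duplicate handling are not given in the sources used here. Columns were assigned to groups by name, and the number in a column name was not tied to a lettered title.

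The deposited counts were rounded and tested over the whole table with edgeR 4.0.16 in R 4.3.3 (TMM, filterByExpr with minimum count 10 and minimum total 15, quasi-likelihood F test, Benjamini-Hochberg adjustment). Tests were two-sided, with a common biological coefficient of variation of 0.198. The libraries give 4 residual degrees of freedom, to which edgeR adds variance information borrowed across genes, so the p-values rest on both. The same test was run on simulated counts, which lacked the coarse steps of the real table. Changes were planted only in well-counted genes and were larger than those of Fasn and Me1. The simulation therefore does not cover smaller changes or sparse genes. CPM use the column total without TMM, and errors of levels are SD over 3 libraries. The standard error (SE) of a log2 fold change was back-calculated, as its absolute value over the square root of the F statistic. The 10 genes, the lists and the alternatives were chosen with earlier results of these data known. The text names the 10 genes, 10 further genes whatever their result and each gene of the wider lists that passed. Plin2, Lrp8, Elovl1, Hsd17b12, Acsl3, Cd79a and the genes given as low or at 0 were named after their values were seen. A few genes are not reported here. Exon overlaps were taken from GENCODE M21. Alternatives were DESeq2 1.42.0 and limma-voom (limma 3.58.1), a replicate block, counts divided by 6, scaling by RLE, upper quartile or library size, a filter of 1 CPM in 3 samples or none, cutoffs of 0.1 and 0.01, and each library left out in turn. Tables and figures used Python 3.11.15, pandas 2.3.3, numpy 2.4.6 and matplotlib 3.10.9.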

Additional observations from a re-analysis of the deposited data

How the results depend on the processing

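Of the 10 genes, 3 or 4 were higher and 1 was lower under every alternative run, Acly being the fourth; Mylip, Fasn, Me1 and Abca1 passed in all 15 alternative fits at a threshold of 0.05. Signs changed for 2 genes that did not pass: Abcg1 (0.024 without DMSO+VIP library 1, with a range of -0.46 to 0.024 over the 6 libraries left out) and Scd2 (0.046 by limma-voom, and -0.37 to 0.29, with the highest value without DMSO+VIP library 2). Scd1 and Scd2 were not tested with counts divided by 6, since they did not pass the filter. Of the wider lists, DESeq2 called 7 lower in place of 4. Over all genes, DESeq2 called 1130 higher and 1114 lower, and a threshold of 0.01 left 303 higher and 345 lower. Leaving out 1 library gave 310 to 745 higher and 395 to 733 lower over all genes; the counts were 310 higher and 427 lower when OCA+VIP library 1 was left out, 356 higher and 395 lower when it was OCA+VIP library 3, and 432 higher and 445 lower when it was DMSO+VIP library 1. The cause was not tested. A shared source of same-numbered libraries is not in the labels. Their deviations from the group means correlated at -0.04, -0.05 and 0.03, not each best with its own number. With 3 libraries a group, these values cannot settle whether such libraries shared a source. With the replicate block, 549 genes were higher and 569 lower, with 3 higher and 1 lower of the 10 genes, and 6 higher and 3 lower of the wider lists. Depth limits Scd1 and Scd2, with 110 and 31.5 counts over the DMSO+VIP group.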
